A study of Mus musculus with 13 samples.

Results

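TRAV6 is a family of near-related mouse T cell receptor (TCR) α-chain variable genes, and its clonotypes were examined in the α-chain repertoires of rescued regulatory T (Treg) cells. A clonotype here is 1 entry of a sample, defined by its CDR3 bases together with the V and the J gene assigned to it. The members were all functional clonotypes, those whose CDR3 translates without a stop codon or frameshift, with the number 6 directly after TRAV in the V gene name. TRAV6-7-DV9, which the TCR δ locus also uses, was not included and accounted for a further 796 clonotypes. There were 6582 TRAV6 clonotypes among 78521 functional clonotypes, between 398 and 676 in each of 13 samples.

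The samples were Treg cells of male Foxp3LSL/y Cd4creERT2 mice on a C57BL/6 background, in which a loxP-flanked Thy1.1-STOP cassette silences Foxp3 until Cre removes it. The Cre recombinase is driven from the Cd4 locus, so that any cell expressing it, and not Treg cells alone, can recombine. Every mouse was given 4-OHT, the tamoxifen metabolite that activates CreERT2, once at postnatal day 14. TCRβ+CD4+GFP+Thy1.1- cells, pooled over spleen and lymph nodes, were isolated 1.5 months (n = 2, age 8 weeks), 3 months (n = 4, age 3.5 months), 5 months (n = 2, age 5.5 months) or 7 months (n = 5, age 7.5 months) later. No sample from an untreated or Foxp3-sufficient mouse was analysed here, and time after treatment cannot be told apart from age.

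An α-chain gene is assembled in the thymus by joining 1 of many V segments to 1 of many J segments, with bases trimmed from the ends and non-templated bases inserted at the junction. The CDR3 loop spans that junction and lies over the peptide held by the MHC molecule. The locus recombines in successive rounds, in which V segments nearer to the J cluster and J segments at its V-proximal end are available first and segments farther out are joined later. In C57BL/6 mice part of the V array is duplicated, and the D and N letters in a gene name mark those copies, so that several TRAV6 genes differ at few or no bases.

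The GENCODE annotation of GRCm38, the build given in the labels, holds all 14 TRAV6 genes of the tables, on the plus strand of chromosome 14. They run from TRAV6-1 at chr14:52638515-52638962, the farthest from the J cluster, to TRAV6-6 at chr14:53516929-53517366, whose end lies 639.9 kb from TRAJ58. Each gene has 2 exons, and the second one, the V exon, contributes its last 14 bases to the CDR3. Those 14 bases are shown since they set the first residues of every clonotype described here:
CALG, in TRAV6-6, TRAV6D-6, TRAV6D-7, TRAV6N-7 and TRAV6N-5: tgtgctctgggtga
CVLG, in TRAV6-1, TRAV6-2 and TRAV6D-5: tgtgttctgggtga
CALV, in TRAV6-4 and TRAV6D-4: tgtgctctggttga
CALS, in TRAV6-5: tgtgctctgagtga
CALS, in TRAV6N-6: tgcgctctgagtga
CAMS, in TRAV6D-3: tgtgctatgagtga
CAMR, in TRAV6-3: tgtgctatgagaga
The V exons of TRAV6D-6 and TRAV6-6 were identical in all their bases, as were those of TRAV6D-7 and TRAV6N-7. The next closest pair, TRAV6D-3 and TRAV6-3, was 99.7% identical, and the median over the 91 pairs was 80.1%. A gene assignment within an identical pair therefore carries no information from the V exon.

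The most abundant TRAV6 clonotype of each time point and the most widely shared ones are given from the first base of the conserved cysteine codon to the last base of the CDR3. Capitals mark bases that lie between the listed end of the V segment and the listed start of the J segment. The marking was not checked against the germline segments, so lower-case bases near the junction need not all be germline.
Most abundant at 1.5 months, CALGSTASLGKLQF, TRAV6-6 with TRAJ24: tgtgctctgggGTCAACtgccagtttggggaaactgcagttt
Most abundant at 3 months, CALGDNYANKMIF, TRAV6-6 with TRAJ47: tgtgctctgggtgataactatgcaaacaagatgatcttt
Most abundant at 5 months, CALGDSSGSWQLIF, TRAV6D-7 with TRAJ22: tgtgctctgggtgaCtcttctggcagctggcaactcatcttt
Most abundant at 7 months, TRAV6-6 with TRAJ17: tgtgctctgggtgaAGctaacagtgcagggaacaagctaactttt
In all 13 samples, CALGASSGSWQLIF, with TRAJ22: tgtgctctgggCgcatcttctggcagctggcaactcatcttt
In all 13 samples, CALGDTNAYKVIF, with TRAJ30: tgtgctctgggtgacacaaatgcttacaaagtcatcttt
For the CDR3s found in all samples, the form shown is the nucleotide clonotype listed in the most samples. The 6 sequences share their first 11 bases, and they differ in what follows, from no inserted base to 6.

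Total counts ran from 509818 to 936831 per sample, of which 26982 to 72811 were TRAV6, with a median of 36 to 86 counts per TRAV6 clonotype. The tables hold no expression values, so that the Treg label could not be checked against marker genes. Rearrangements of other lineages were rare, with at most 0.117% of functional counts in TRAV11 with TRAJ18, the invariant NKT cell receptor, 0.128% in TRAV1 with TRAJ33, the MAIT cell receptor, and 0.0720% in TRDV genes. The TRAV6 clonotypes of 1 library stood apart: 3 months replicate 4 shared 5.74% of V, J and CDR3 nucleotide sequences (Jaccard index, shared over all distinct) with 5 months replicate 1, and 5.50% with 1.5 months replicate 1. The mean over all pairs between time points was 1.67%.

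A second feature of the tables bears on every clonotype number. Of the TRAV6 clonotypes, 718 (10.9%) differed by 1 base from a clonotype of the same sample and J gene with at least 5 times the counts, and are called near-copies here. The share was 10.8% ± 1.14 (SD, n = 13) per sample for TRAV6 and 10.9% ± 0.945 for the other TRAV clonotypes, and near-copies took 1.84% ± 0.528 of TRAV6 counts. The counts of a TRAV6 near-copy were a median of 0.0896 times those of its larger neighbour, and 0.0507 times at the least, where the authors' correction dropped the smaller of a 1-base pair under a ratio of 0.05. They were concentrated in TRAJ15, where 179 of 450 TRAV6 clonotypes were near-copies, TRAJ21 (158 of 399) and TRAJ13 (104 of 304). In those 3 J genes 1 substitution recurred: T20G in TRAJ15, T16G in TRAJ21 and T15G in TRAJ13, with positions counted from 1 at the first base of the annotated J segment and the annotated base given first. These substitutions made up 158, 135 and 84 of the TRAV6 near-copies in the 3 genes and occurred in all 13 samples. T20G left the amino acid unchanged and the other two replaced it. Whether the near-copies are cells or copying errors was not tested.

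TRAV6-6 was the most used TRAV6 gene in every sample. It accounted for 36.9% ± 2.27 of them (SD, n = 13, from 33.9% to 40.2%), TRAV6D-7 for 19.7% ± 2.04, TRAV6N-6 for 9.98% ± 1.28 and TRAV6-5 for 8.06% ± 0.661. In an exact paired permutation test over the samples (two-sided, all 8192 sign changes), each of these 4 genes was higher than the next in the order, the last of them than TRAV6-3 (adjusted p from 7.93e-04 to 0.00635 over 13 neighbour pairs). The order was taken from the same 13 samples, which set the direction of each neighbour difference before it was tested, so these p-values describe the separation of neighbours and are not independent evidence of the order. The values of TRAV6-6 and TRAV6D-7 did not overlap in any sample, whereas TRAV6N-6 exceeded TRAV6-5 in 11 of 13 samples.

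The middle of the order was not resolved. TRAV6-3 at 4.76% ± 0.748 and TRAV6-4 at 4.74% ± 1.303 were not separated by the exact test (adjusted p = 0.977), with a difference that changed sign when counts were summed instead of clonotypes (-1.07 percentage points). TRAV6-4 exceeded TRAV6-2, at 3.22% ± 0.683, in 12 of 13 samples (exact paired test, adjusted p = 0.0153). From TRAV6-2 down through TRAV6D-4 (3.20% ± 1.304), TRAV6N-5 (2.95% ± 0.879), TRAV6-1 (2.58% ± 0.968), TRAV6D-3 (2.07% ± 0.841) and TRAV6D-5 (1.62% ± 0.855), no neighbour pair passed (adjusted p from 0.325 to 0.977). TRAV6D-6 and TRAV6N-7 were listed for only 10 and 4 clonotypes, in 8 and 3 samples. These are the genes whose V exons equal those of TRAV6-6 and TRAV6D-7, so that their share and that of their twin cannot be told apart. Of 767 TRAV6 CDR3 nucleotide sequences found in at least 2 samples, 255 (33.2%) were listed under more than 1 TRAV6 gene, most often under TRAV6-6 and TRAV6D-7 (150), which share the same germline CDR3 end.

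**Figure D1:**
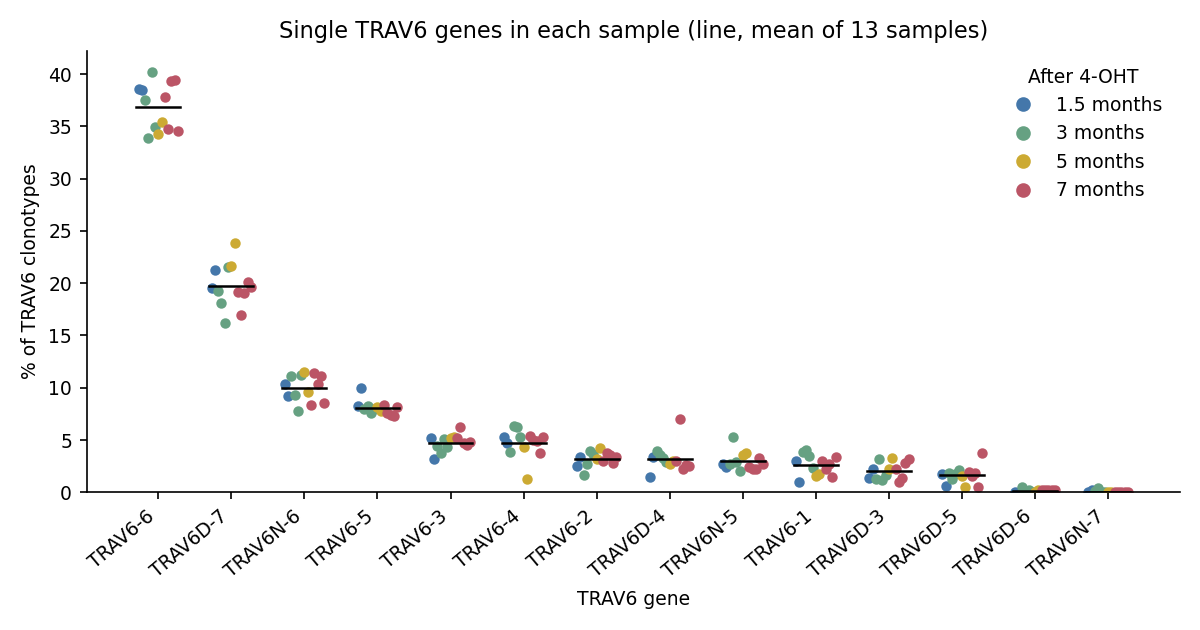
Share of TRAV6 clonotypes (%, vertical axis) assigned to each of the 14 TRAV6 genes (horizontal axis), with 1 point per sample coloured by time point and a line at the mean of 13 samples. TRAV6-6 lies between 33.9% and 40.2% in all samples, above every value of TRAV6D-7.

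With the other TRAV clonotypes of the same sample as the comparison, TRAV6 was joined less often to the V-proximal J genes. J genes were grouped by number, which falls along the cluster from the V-proximal TRAJ58 toward the constant region. TRAJ41 and above took 11.2% ± 1.68 (SD, n = 13) of TRAV6 clonotypes, from 8.54% to 13.9%, and 19.5% ± 0.847 of the others, from 18.2% to 20.9%, so that the ranges did not overlap. TRAJ24 to TRAJ40 took 38.8% ± 2.74 against 35.4% ± 0.869, and TRAJ23 and below 49.97% ± 2.18 against 45.02% ± 1.21, both higher with TRAV6 in 13 of 13 samples. The mean J gene number was 25.5 ± 0.592 with TRAV6 and 27.8 ± 0.349 with the other TRAV genes, a difference of -2.31 ± 0.714 that was negative in 13 of 13 samples (exact paired permutation test, p = 2.44e-04, the smallest that 13 pairs allow, adjusted p = 5.70e-04 over 7 measures). With the DV genes left out of the comparison set the difference was -1.45 (exact p = 2.44e-04). All TRAV6 genes share these J genes and each sample's library, and clonotypes were not treated as replicates.

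By single J gene, 12 of 43 tested (27.9%) were higher and 9 (20.9%) lower with TRAV6 at an adjusted p under 0.05 (edgeR quasi-likelihood test on clonotype numbers, samples as blocks). All 8 called J genes among the 13 numbered 41 or above were lower, and of 30 J genes below that number 12 were higher and 1, TRAJ5, was lower. The split depends on the scaling: with library totals in place of TMM normalization, 8 were higher and 14 lower, and the median log2 fold change over all J genes was -0.16 instead of -0.03. DESeq2 called 5 higher and 10 lower, and the counts without near-copies were 13 higher and 11 lower.

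TRAJ56 showed the largest difference. It took 0.465% ± 0.296 of TRAV6 clonotypes (from 0% to 0.903%) and 1.64% ± 0.143 of the others (from 1.46% to 1.94%), a log2 fold change of -1.64 (SE 0.247, edgeR adjusted p = 6.94e-06). Its neighbours at the V-proximal end behaved alike, TRAJ58 with -1.58 (SE 0.277) and TRAJ57 with -1.49 (SE 0.237), both lower with TRAV6 in 13 of 13 samples, and TRAJ44 followed with -1.06 (SE 0.233). No sample's TRAV6 share of TRAJ56, TRAJ57 or TRAJ58 reached the lowest share among the other TRAV clonotypes. On the higher side the differences were smaller: TRAJ34 with a log2 fold change of 0.55 (SE 0.0893, edgeR adjusted p = 7.78e-06), TRAJ30 with 0.54 (SE 0.101), TRAJ26 with 0.52 (SE 0.0904) and TRAJ31 with 0.50 (SE 0.0899), each higher in 10 to 12 of 13 samples. TRAJ34 took 4.14% ± 0.755 of TRAV6 clonotypes against 3.06% ± 0.193, and the sample ranges overlapped.

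**Figure D2:**
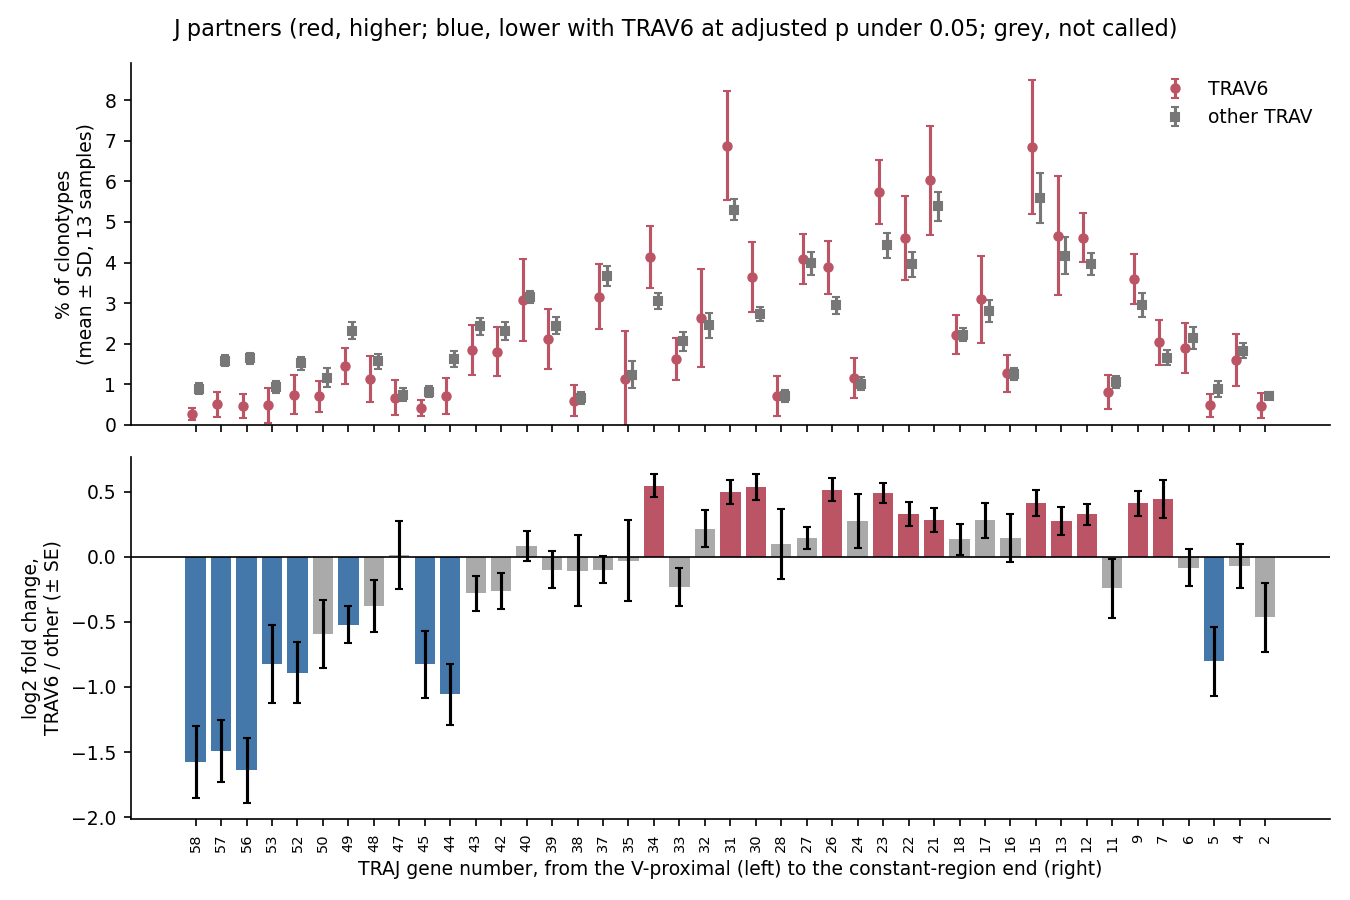
Upper panel, share of clonotypes (%, mean ± SD of 13 samples) that use each TRAJ gene with TRAV6 (red) or other TRAV genes (grey); lower panel, log2 fold change of TRAV6 over the others with its standard error, coloured red or blue where the edgeR adjusted p was under 0.05. J genes run from the V-proximal TRAJ58 at the left to TRAJ2 at the right, and the V-proximal block from 58 to 56 lies between -1.64 and -1.49.

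The order of the most used partners depended on the near-copies. As deposited, the 6 most used were TRAJ31 (6.88% ± 1.35 of TRAV6 clonotypes), TRAJ15 (6.84% ± 1.65), TRAJ21 (6.03% ± 1.35), TRAJ23 (5.73% ± 0.786), TRAJ13 (4.67% ± 1.48) and TRAJ12 (4.62% ± 0.597). Without near-copies TRAJ31 stayed first with 7.20% ± 1.47, while TRAJ15 went from rank 2 to rank 5 (4.62% ± 0.952), TRAJ21 from 3 to 9 (4.10% ± 0.838) and TRAJ13 from 5 to 12 (3.47% ± 1.19). All 6 were higher with TRAV6 than with the other genes as deposited, with log2 fold changes from 0.27 for TRAJ13, where TRAV6 was higher in only 7 of 13 samples, to 0.50 for TRAJ31. Without near-copies these 6 also passed, TRAJ13 at the edge of the threshold (edgeR adjusted p = 0.0487). With library totals, the edgeR calls of TRAJ21 (adjusted p = 0.126) and TRAJ13 (0.221) were lost. DESeq2 also lost those of TRAJ15 (adjusted p = 0.0866) and TRAJ12 (0.197), while TRAJ31 and TRAJ23 passed under both. Single libraries also decided some: the TRAJ21 call was lost without replicate 1, 2 or 4 of 3 months (edgeR adjusted p from 0.0847 to 0.122). That of TRAJ13 was lost without 1.5 months replicate 2, replicate 1, 3 or 4 of 3 months, 5 months replicate 1 or replicate 1, 2 or 5 of 7 months (from 0.0549 to 0.316). Its log2 fold change was between 0.25 and 0.29 in 4 of these 8 cases, near the 0.27 of all samples, and between 0.14 and 0.20 in the other 4. Both J genes were also lost without the filter on low numbers, with a minimum of 2 counts, without DV genes, with amino-acid clonotypes and without cross-library clonotypes (adjusted p from 0.0570 to 0.324), TRAJ13 most clearly without DV genes (log2 fold change 0.13, adjusted p = 0.324). TRAJ12, with a log2 fold change of 0.33 in the main fit, was at 0.18 with a minimum of 2 counts (edgeR adjusted p = 0.131). It was at 0.21 without DV genes (edgeR adjusted p = 0.0571), and also at 0.21 with library totals and with DESeq2. TRAJ21, at 0.28 in the main fit, was at 0.17 with library totals and 0.15 with DESeq2. The TRAJ15 value was 0.27 without 3 months replicate 2.

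Within the family the J partners differed by gene, which is described without a test. The mean J number was highest for the genes nearest the J cluster, TRAV6-6 (28.7 ± 1.29) and TRAV6-5 (27.4 ± 2.44), and lowest for TRAV6N-5 (20.9 ± 4.49) and TRAV6N-6 (21.04 ± 2.19) in the middle of the array. TRAV6-1, the farthest gene, stood between with 23.5 ± 4.84. Over the 11 genes with at least 5 clonotypes in every sample, Spearman's rho between the mean J number and the distance to TRAJ58 was -0.52, and the near-identical genes among them do not give independent points. With the pooled mean J number of the 12 genes with at least 100 clonotypes it was -0.43. Positions are those of the assigned genes, and the V exon cannot separate TRAV6-6 from TRAV6D-6 or TRAV6D-7 from TRAV6N-7. TRAV6-6 placed 16.3% of its pooled clonotypes in TRAJ41 and above, TRAV6N-6 8.04% and TRAV6D-7 6.41%.

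The CDR3s kept the germline start in most clonotypes. CAL opened 82.8% ± 1.71 (SD, n = 13) of TRAV6 CDR3s, CALG 51.3% ± 3.18, CALS 12.5% ± 1.31, CVL 7.11% ± 1.47 and CAM 6.45% ± 0.944. Within a gene, the fourth residue was kept in 93.9% of TRAV6D-3 clonotypes but in 60.0% of those of TRAV6D-4, of which 18.1% had CALA in place of CALV. The whole 14-base end was intact in 52.3% of TRAV6D-3 and 20.5% of TRAV6D-4 clonotypes. A cysteine inside the loop, a feature known from receptors with strong self-reactivity, was seen in 1.16% ± 0.714 of TRAV6 and 1.25% ± 0.299 of the other clonotypes.

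TRAV6 CDR3s were longer than those of the other TRAV genes. The mean length was 13.67 ± 0.0534 residues (SD, n = 13) against 13.48 ± 0.0243, a difference of 0.187 ± 0.0555 that was positive in 13 of 13 samples (exact paired permutation test, p = 2.44e-04, adjusted p = 5.70e-04). Every TRAV6 value, from 13.55 to 13.76, lay above every value of the other clonotypes. Length 14 was the most frequent in TRAV6 (33.4% ± 2.28), and length 12 was the class with 9.68% ± 1.76 in TRAV6 and 14.8% ± 0.795 in the others. The number of inserted bases was 2.10 ± 0.134 against 2.16 ± 0.0513, lower in 9 of 13 samples (difference -0.0615 ± 0.131, exact paired test, p = 0.121, adjusted p = 0.169). Its unadjusted p fell to 0.00635 when clonotypes with a single count were left out, and to 0.0281 when the DV genes were left out of the comparison set. The difference was smaller, -0.0402, when weighted by counts (exact p = 0.408) and -0.0403 without 7 months replicate 1 (exact p = 0.241). Junctions with no inserted base made up 31.1% ± 1.87 and 30.9% ± 1.07 (difference 0.146 ± 2.29 percentage points, exact paired test, p = 0.828).

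**Figure D3:**
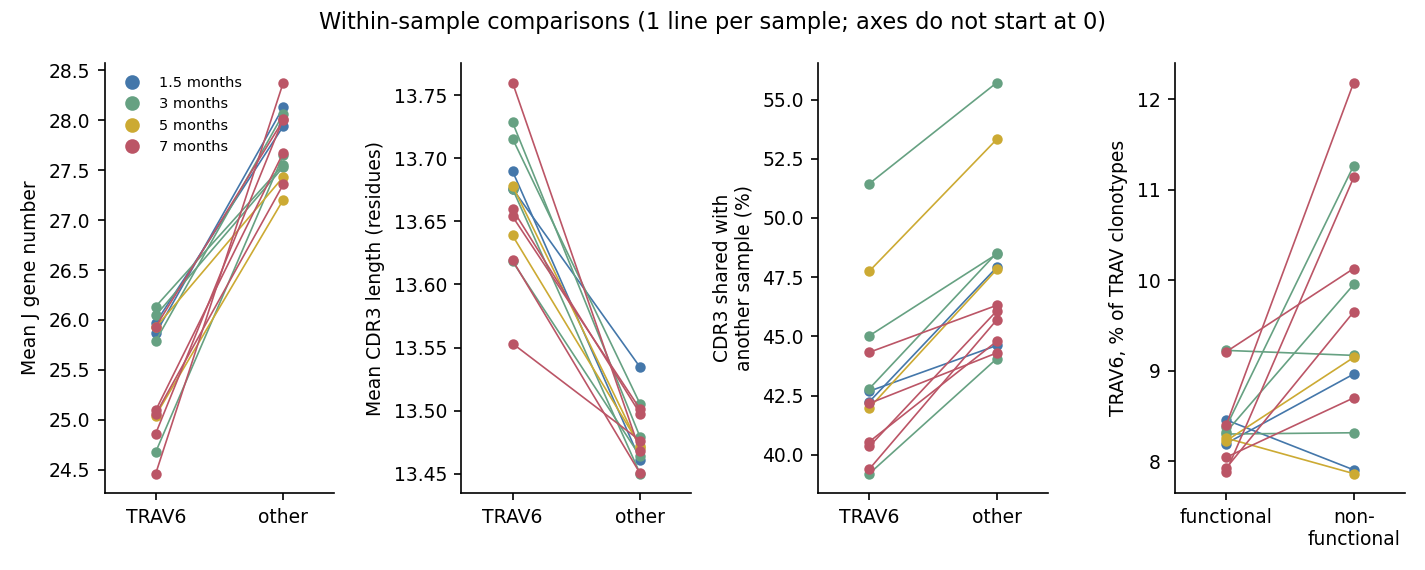
Each line joins the values of 1 sample, coloured by time point: from the left, the mean J gene number, the mean CDR3 length in residues and the share of CDR3s found in another sample (%) for TRAV6 and other TRAV clonotypes, and the TRAV6 share (%) of functional and non-functional TRAV clonotypes. The first 3 panels move the same way in 13 of 13 samples and the last falls from non-functional to functional in 10 of 13; the axes do not start at 0.

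TRAV6 took a smaller share of functional than of non-functional rearrangements, those with a stop codon or frameshift, which are not selected for the protein they would encode. Its share was 8.37% ± 0.414 of functional and 9.57% ± 1.33 of non-functional TRAV clonotypes (SD, n = 13), a difference of -1.20 ± 1.396 percentage points that was negative in 10 of 13 samples (exact paired permutation test, p = 0.00757, adjusted p = 0.0132). Each sample's non-functional share rests on 56 to 105 TRAV6 clonotypes, against 398 to 676 functional ones. The genes differed in the fraction of their own clonotypes that was non-functional, from 6.67% of 225 in TRAV6D-4 and 6.78% of 339 in TRAV6-4 to 25.6% of 715 in TRAV6-5 and 27.9% of 265 in TRAV6N-5, given as pooled counts without a test. Those with the CALV end had the lowest of these fractions among genes with over 100 clonotypes.

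Large clones were few in the family. Between 1 and 9 TRAV6 clonotypes per sample, 49 in all, held more than 0.1% of functional counts, which was 0.778% ± 0.574 of TRAV6 clonotypes and 1.71% ± 0.526 of the others, with the TRAV6 share lower in 13 of 13 samples. This measure was chosen after its values were seen and was given no test. The median clone size, 56.2 ± 15.7 counts against 57.0 ± 17.6, differed by less than the spread between samples (-0.808 ± 11.8, exact paired permutation test, p = 0.828). Counts depend on the α-chain RNA of a cell as well as on the number of cells, which cannot be told apart here.

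The 4 leading clonotypes shown above were each dominant in a single mouse. The TRAV6-6 with TRAJ17 clonotype reached 4803 counts in 7 months replicate 4, 1.01% of functional counts (95% Wilson interval 0.979% to 1.04%, counting error only) and 11.8% of TRAV6 counts, and was listed with at most 2 counts in 2 other samples. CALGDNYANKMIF, listed without an inserted base, had 5455 counts in 3 months replicate 1 (0.731% of functional counts) and at most 1 count in the 4 other samples that listed it. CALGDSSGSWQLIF held 0.268% in 5 months replicate 1 and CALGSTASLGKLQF 0.223% in 1.5 months replicate 2, and each had at most 68 counts in another sample. The 10 largest TRAV6 clonotypes together took 10.7% to 34.95% of TRAV6 counts, with 7 months replicate 4 the highest and 3 months replicate 1, at 24.6%, next.

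Most TRAV6 CDR3s were private. Of 4438 distinct amino-acid sequences, 3498 (78.8%) were found in 1 sample, 903 in 2 to 6 and 37 (0.834%) in 7 or more. Among the 46471 distinct CDR3s of the other TRAV genes, 76.1% were found in 1 sample and 1.01% in 7 or more. Without near-copies, 4106 TRAV6 sequences were left, of which 34 were in 7 or more samples. Without 3 months replicate 4, the library that stood apart, 80.8% were in 1 sample and 28 in 7 or more. Sharing went with fewer inserted bases: clonotypes of CDR3s in 1 sample had a mean of 2.65 inserted bases, those in 2 to 6 samples 1.60 and those in 7 or more 0.418, and 22.1%, 37.0% and 70.0% had none. The values without near-copies were 2.67, 1.64 and 0.445. These are descriptions over pooled clonotypes, since the classes are defined by the samples themselves. The widely shared class took 10.9% ± 2.80 of TRAV6 counts (SD, n = 13). Of its 37 members, 6 used TRAJ31, 4 used TRAJ34, and TRAJ18, TRAJ23, TRAJ27 and TRAJ15 were used by 3 each. Among all TRAV6 clonotypes TRAJ31 took 6.88% and TRAJ34 4.14%, and J use in the shared class was not tested.

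**Figure D4:**
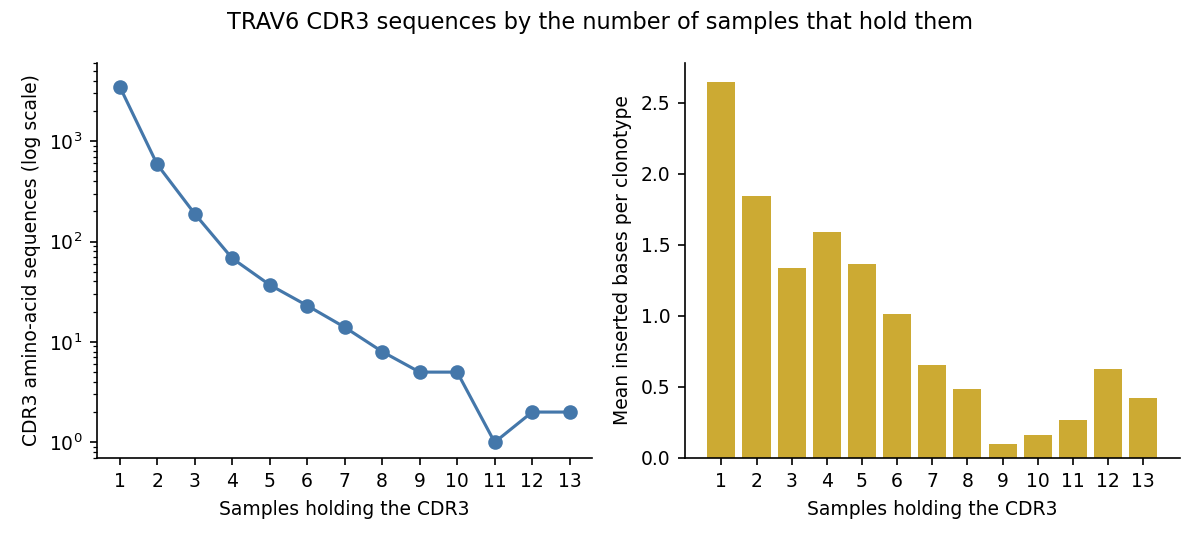
Left, number of distinct TRAV6 CDR3 amino-acid sequences (log scale) by the number of samples that hold them; right, mean number of inserted bases per clonotype of those sequences. The count falls from 3498 in 1 sample to 2 in all 13, and the inserted bases fall from 2.65 to under 1 from 7 samples on.

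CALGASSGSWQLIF was present in all 13 samples, encoded by 5 nucleotide sequences and listed under 5 TRAV6 genes. It held from 0.575% to 2.20% of TRAV6 counts in 12 samples and 8.56% in 7 months replicate 4, where 1 TRAV6D-7 clonotype with 3496 counts carried it. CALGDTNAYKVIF, for which no clonotype was listed with an inserted base, held 0.466% ± 0.236 (SD, n = 13), from 0.172% to 1.00%. Next came 2 TRAJ34 sequences in 12 samples, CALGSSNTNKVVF (0.608% ± 0.409) and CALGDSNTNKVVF (0.480% ± 0.440), and a TRAJ31 sequence in 11, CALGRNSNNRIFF (0.296% ± 0.244). The samples of 1.5 months held 0.172% and 0.179% of TRAV6 counts in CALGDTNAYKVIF, below all 11 later samples (from 0.267%), and this pattern was seen after the values were examined and was given no test. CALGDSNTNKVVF held 0.0701% and 0.280% at 1.5 months, from 0% to 0.513% at 3 months, 0.0304% and 0.497% at 5 months and from 0.355% to 1.49% at 7 months, so that the 3-month and 5-month samples lay on both sides of those of 1.5 months. For the other 3 sequences the time points overlapped.

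As deposited, the CDR3 with the most encodings was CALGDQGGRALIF with TRAJ15, spelled by 12 nucleotide sequences in 10 samples, with no inserted base listed for any. Its encodings came in 6 pairs that differ by T20G in the J segment, of which the pair whose annotated form was found in the most samples is shown, with the differing base in capitals:
Annotated base, 7 samples: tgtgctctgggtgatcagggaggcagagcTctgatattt
Near-copy base, 3 samples: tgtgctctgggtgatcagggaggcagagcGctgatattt
The first had 666 counts in total and the second 30. Without near-copies, 5 nucleotide sequences were left. After the common start tgtgctctggg of the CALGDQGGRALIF encodings, the next base was t, g, a or c. The germline V end and TRAJ15 cannot supply that base in all of them, although no inserted base was listed.

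CDR3s were shared less often by TRAV6 than by the other TRAV genes. Of distinct CDR3s per sample, counted with the V family, 43.1% ± 3.45 of TRAV6 and 47.5% ± 3.51 of the others were found in at least 1 other sample (SD, n = 13), a difference of -4.44 ± 1.60 percentage points that was negative in 13 of 13 samples (exact paired permutation test, p = 2.44e-04, adjusted p = 5.70e-04). With 3 months replicate 4 removed altogether, the values were 40.1% ± 2.27 and 44.5% ± 1.84, and the difference of -4.41 ± 1.58 was negative in 12 of 12 samples (exact paired permutation test, p = 4.88e-04). The samples are not independent in this measure, since each is compared with all the others. Families of unequal size enter the comparison set.

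The sharing of TRAV6 CDR3s within time points was not separated from that between time points by the test. The Jaccard index of amino-acid sequences was 5.13% ± 0.747 over 18 pairs within and 4.98% ± 1.07 over 60 pairs between time points (difference 0.155, exact permutation test over samples, p = 0.581). That value depends on 3 months replicate 4: without it the difference was 0.418 (exact p = 0.0400). With nucleotide sequences the values were 1.71% and 1.67% (exact p = 0.851).

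Over time after 4-OHT, neither the TRAV6 share of the repertoire nor the number of TRAV6 clonotypes differed past the test, although the mean number was lower at each later time. There were 676 and 532 TRAV6 clonotypes at 1.5 months, 655, 475, 512 and 552 at 3 months, 443 and 398 at 5 months, and 407, 500, 445, 423 and 564 at 7 months. The 5-month samples lay below both 1.5-month samples, and the 7-month samples overlapped with them. The difference from 1.5 months was -183.5 at 5 months (pooled SD 71.5, exact permutation test over 540540 arrangements with correction for 3 comparisons, p = 0.0618) and -136.2 at 7 months (p = 0.0978, both adjusted p = 0.828 over 18 tests). Without near-copies there were 591 and 476 clonotypes at 1.5 months and 401 and 355 at 5 months, and the differences were -155.5 at 5 months (exact p = 0.0598) and -116.7 at 7 months (exact p = 0.0913). The total of functional clonotypes moved alike, with 7998 and 6497 at 1.5 months and 5388 and 4828 at 5 months. With at least 2 counts per clonotype the differences were -150.5 (exact p = 0.0216) and -106.9 (exact p = 0.0375) before adjustment over the 18 tests. The unadjusted call also depended on single libraries: without 1.5 months replicate 2 the differences were -255.5 (exact p = 0.0210) and -208.2 (exact p = 0.0359), and without replicate 1 of that time they were -111.5 and -64.2.

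As a share of functional clonotypes TRAV6 stood at 8.32% ± 0.186 at 1.5 months (n = 2), 8.55% ± 0.445 at 3 months (n = 4), 8.23% ± 0.0153 at 5 months (n = 2) and 8.28% ± 0.554 at 7 months (n = 5). No difference from 1.5 months passed (exact permutation test, p of 0.888 or above). The largest of them, 0.228 percentage points at 3 months, was 0.360 without 1.5 months replicate 1, 0.00579 without 3 months replicate 1 and 0.388 with a minimum of 2 counts. The share of functional counts was 7.53%, 7.20%, 5.83% and 6.69% at the 4 time points, with a pooled SD of 1.37 and no difference past the test (exact p of 0.457 or above). The inverse Simpson index, the effective number of equally sized clonotypes, was 269.6 and 197.4 at 1.5 months and ran from 37.4 to 193.1 at 7 months, without overlap. Its differences of -106.6 at 5 months (exact p = 0.234) and -106.7 at 7 months (exact p = 0.138) lay within 2 pooled SDs of 59.9 and did not pass, and without 1.5 months replicate 1 they were -70.5 and -70.6. The mean CDR3 length was 13.68, 13.68, 13.66 and 13.65 residues and the mean number of inserted bases 2.02, 2.12, 2.16 and 2.09 at the 4 time points, without a difference past the test (exact p of 0.669 or above).

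**Figure D5:**
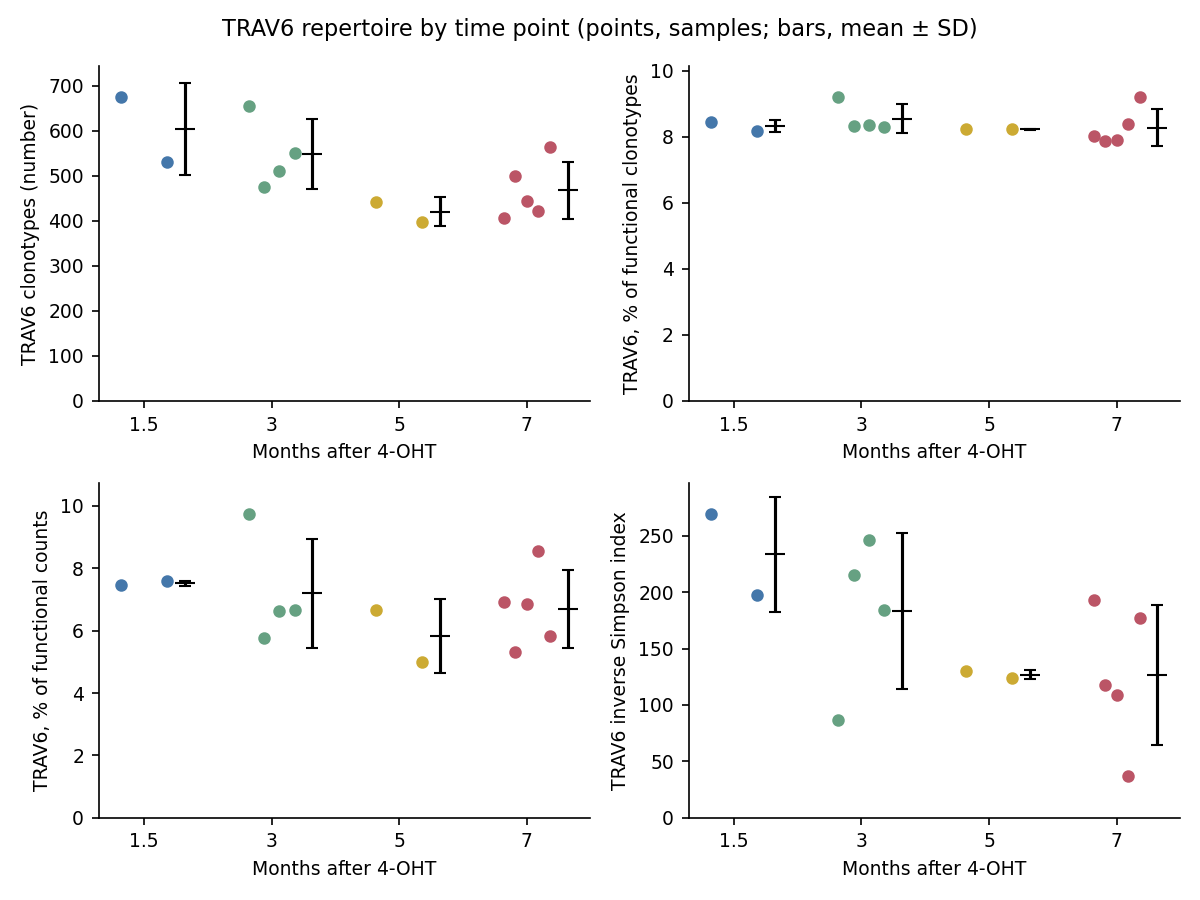
TRAV6 clonotype number, share of functional clonotypes (%), share of functional counts (%) and inverse Simpson index by months after 4-OHT, with 1 point per sample and a bar for the mean ± SD. The clonotype share stays between 7.87% and 9.21% in all samples, whereas the index drops to 37.4 in 1 sample at 7 months.

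No single TRAV6 gene passed the test for a change in clonotype number between time points. In edgeR fits over 90 V genes, of which 12 were TRAV6 genes, none of the V genes passed an adjusted p of 0.05 at 3, 5 or 7 months against 1.5 months or at 7 against 3 months (0.0% called in each), while 10, 8, 6 and 1 had an unadjusted p under 0.05. DESeq2 also called 0 in each. The smallest p of a TRAV6 gene at 5 months was that of TRAV6-4, with 5.33% and 4.70% of TRAV6 clonotypes at 1.5 months and 4.29% and 1.26% at 5 months, and a log2 fold change of -0.85 (SE 0.417, adjusted p = 0.525). At 3 months it was TRAV6-1 (0.76, SE 0.429, adjusted p = 0.582), at 7 months TRAV6D-4 (0.54, SE 0.426, adjusted p = 0.709) and at 7 against 3 months TRAV6-1 again (-0.46). All 4 values moved with a setting or a library. TRAV6-1 at 7 against 3 months was at -1.04 with summed counts, and TRAV6-4 at 5 months was at -0.39 with D and N copies merged. TRAV6-4 was at -0.27 without 5 months replicate 2 and -2.09 without replicate 1 of that time. TRAV6-1 at 3 months was at 1.89 without 1.5 months replicate 1 and 0.23 without replicate 2. TRAV6D-4 was at 0.11 without 7 months replicate 2, 0.02 without 1.5 months replicate 1 and 1.17 without 1.5 months replicate 2. Taken as 1 family, TRAV6 had log2 fold changes of 0.05, -0.01, -0.01 and -0.07 (SE 0.0501 to 0.0752) in the 4 comparisons, in which 4.0%, 0.0%, 4.0% and 0.0% of 25 families were called and TRAV6 was not.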

How the data were processed

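The deposited tables list, per sample, the count of each TCRα clonotype and its fraction of all counts; per the labels and methods the authors amplified TCRα by 5′ RACE, sequenced on a MiSeq, assembled clonotypes with MiXCR, and used VDJtools to drop the smaller of 2 clonotypes that differed at up to 2 bases, if its size relative to the larger was under 0.05 raised to the number of mismatches. Whether a deposited count is a read or a molecule is not stated. There were 477052 to 882170 functional counts per sample, more than the number of Treg cells that the methods give as sorted per sample. Counts are therefore not independent cells and do not set the precision. Samples, and not counts or clonotypes, were the replicates in the tests that gave the p-values.

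Functional clonotypes were selected and each was counted once, unless counts are named. Inserted bases are those between the V end and J start of the tables. Bases inside the listed V or J part that differ from the germline are not counted among them. The quasi-likelihood test of edgeR 4.0.16 (R 4.3.3), after filterByExpr and TMM normalization and with Benjamini-Hochberg adjustment over all genes tested, was applied to V and J use, with DESeq2 1.42.0 as an alternative. Other comparisons used exact permutation tests in Python 3.11.15 with numpy 2.4.6. The code was tested on simulated data. The named items are all TRAV6 genes, the 6 most used J genes and up to 4 called J genes per direction, the TRAV6 gene with the smallest p per time comparison, and the most abundant, most shared and most often encoded CDR3s. The members and lists were chosen with earlier results of these data known. Further alternatives were chosen after seeing the data: leaving out near-copies, and leaving out cross-library clonotypes, those whose counts in another sample were 100 times as high or more.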

Additional observations from a re-analysis of the deposited data

Results flagged for a closer look

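In 49 groups of 4 or 5 samples, 3 values lay apart from the rest of their group by a gap test that marks about 1 in 20 groups by chance. TRAV6 took 9.21% of functional clonotypes in 3 months replicate 1, against 8.29% to 8.37% in the other 3 samples of that time. TRAV6D-4 took 7.0% of TRAV6 clonotypes in 7 months replicate 2, against 2.25% to 2.95% in the other 4, and TRAV6-4 took 3.78% in 7 months replicate 4, against 4.94% to 5.41%.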

How the results depend on the processing

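Of 1318 alternative values for 67 results, 1212 kept their direction and side of the threshold (or stayed within 1.5 times a count), and no TRAV6 gene was called at any time point under any alternative run. Within-sample differences in CDR3 length, J number and sharing kept theirs in every alternative run, with the J number at -1.45 without DV genes. For the number of TRAV6 clonotypes, a minimum of 2 counts gave -150.5 at 5 months and -106.9 at 7 months, and removal of cross-library clonotypes -191.5 at 5 months (exact p = 0.0372), all past an unadjusted threshold of 0.05. Without 3 months replicate 1 (exact p = 0.0444) the 5-month difference passed too, and without 7 months replicate 5 that at 7 months did (-160.25, exact p = 0.0488).

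Values that lay near 0 changed sign without passing, with 1 exception. The TRAV6 share of functional clonotypes differed from 1.5 months by 0.00859 at 5 and 0.206 at 7 months with a minimum of 2 counts, and at 7 months by 0.0234 without cross-library clonotypes and 0.00614 without near-copies. The mean CDR3 length at 3 months differed by -0.00308 at equal depth, -0.00741 with amino-acid clonotypes, -0.000946 without cross-library clonotypes and -0.0167 without near-copies. Against the other TRAV genes, inserted bases kept their direction and passed the unadjusted threshold with a minimum of 2 counts (-0.0846) and without DV genes (-0.0935), while junctions without inserted bases changed to -0.865 when weighted by counts and median counts to 0.269 without DV genes. TRAV6-3 minus TRAV6-4 was -1.07 with summed counts (the exception, exact p = 0.0474), -0.109 with a minimum of 2 counts and -0.0135 without near-copies, and TRAV6-2 minus TRAV6D-4 was -0.409 and -0.123 under the first of these settings. Overlap within minus between time points was -0.0179 with nucleotides and no cross-library clonotypes.

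Of single V genes, where 0 were called, 1 was called at 3 months with merged D and N copies and 2 with a minimum of 2 counts, and at 5 months 2 with a minimum of 2 counts and 2 without cross-library clonotypes. Fits of another form, over 25 V families, called 1 family at 3 months and 1 at 7 months. J genes higher with TRAV6 were 5 with DESeq2, and those lower were 14 with library totals and 14 with amino-acid clonotypes. The cause of these changes was not tested.

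With the replicate number as a replicate block, 3, 3 and 1 V genes were called at 3, 5 and 7 months. The numbers gave no clear pairing: the correlation of deviations in V gene use between same-numbered samples was 0.0744 on average over 14 pairs (from -0.300 to 0.409). Over the other measures it ran from -0.305 for the inverse Simpson index to 0.285 for the TRAV6 share of functional counts.

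Leaving out each sample in turn, the clonotype difference ran from -127.5 to 16.5 at 3 months, from -255.5 to -111.5 at 5 and from -208.2 to -64.2 at 7 months. The inverse Simpson index ran from -142.7 to -70.5 at 5 and from -142.8 to -70.6 at 7 months. The clonotype share ran from 0.00579 to 0.360 at 3 months, from -0.219 to 0.0444 at 5 and from -0.269 to 0.0931 at 7 months, the count share from -1.17 to 0.159 at 3 months (at 5 months -0.861 without 5 months replicate 2, at 7 months -0.492 without 7 months replicate 2 and -1.299 without replicate 4), the CDR3 length from -0.0130 to 0.0237 at 3 months and inserted bases from -0.0216 to 0.161 at 7 months. Against other TRAV genes, junctions without inserted bases ran from -0.219 to 0.538 and median counts from -2.04 to 1.54. The ranges were -0.320 to 0.226 for TRAV6-3 minus TRAV6-4, -0.0963 to 0.283 for TRAV6-2 minus TRAV6D-4, -0.122 to 0.419 for TRAV6D-4 minus TRAV6N-5, and 0.0205 to 0.418 for the overlap. V genes called ran from 0 to 1, 0 to 2 and 0 to 1 at 3, 5 and 7 months.

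Groups of 2 samples limit every comparison with 1.5 and 5 months, and single genes with few clonotypes per sample, such as TRAV6D-5, are imprecise.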
